A study of Mus musculus with 4 samples.

Results

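Transcripts of 42 genes that copy DNA or open S phase were examined in mouse bone marrow-derived macrophages exposed to necrotic fat. The genes were taken as a named list of replication and S phase genes and matched by symbol. The list was chosen with earlier results of these data known. Shares of all genes tested given beside its counts therefore describe the list and do not test it. All 42 were found among the 17013 genes listed and passed the filter on low values. The cells came from wild-type male C57BL/6 mice, were grown from marrow with M-CSF and were seeded on porous inserts. In both groups artificial necrotic bone fluid (aNBF), a freeze-thaw extract of mouse bone and marrow, was placed above the cells for 24 h. The groups differed in what lay below the insert, both made from freeze-thawed mouse abdominal fat. Con received the middle layer of the centrifuged preparation, which is the fat control medium, and Fat received its top layer, which is the high-fat-containing medium. There were 2 libraries per medium, and the labels do not say whether the 2 came from separate cultures or animals, so the p-values measure the spread between these libraries, which may be technical. No group lacked aNBF or fat-derived medium, so the comparison is of 1 necrotic preparation with another.

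Before S phase, the loading factors Cdc6 and Cdt1 place the ring-shaped Mcm2 to Mcm7 helicase on origins of replication. Cdc45, the GINS complex and Mcm10 then turn the helicase on, and clamp, clamp loader, polymerases, flap nuclease and ligase copy both strands while ribonucleotide reductase and thymidylate synthase supply the building blocks. Most of these genes are targets of E2F transcription factors and are transcribed around entry into S phase. Macrophages grown in M-CSF can still divide, so a bulk culture mixes cells in S phase with resting cells. A lower level in such a culture cannot distinguish fewer cells in S phase from less RNA per cell.

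The replication genes were lower in Fat across most of the list, by moderate amounts. Of the 42 genes, 15 fell at an adjusted p-value under 0.05 (limma on log2(CPM + 0.1), two-sided, Benjamini-Hochberg over all 12470 genes tested), and 0 rose. Among all genes tested, 5.0% were called lower and 3.99% higher by the same rule. Among the called genes the largest falls were those of Mcm10, which fell by 34.6% in mean CPM, Cdc6 by 29.0% and Uhrf1 by 27.7%. In 33 of the 42 genes both Fat libraries lay below both Con libraries, against 26.2% of all genes tested, and in 2 genes, Cdt1 and Dnmt1, both Fat libraries lay above, against 29.4%. The log2 fold change was below 0 for 40 of the 42 genes, against 46.4% of all genes tested. Its median was -0.27 over the 42 genes and 0.01 over all genes tested. Where unadjusted p was no more than 0.05, 27 of the genes were lower and 2 higher, against 12.4% and 11.8% of all genes tested. edgeR's quasi-likelihood test on the recovered reads called 15 lower and 0 higher, against 5.2% and 3.93%, and DESeq2 called 11 lower and 0 higher, against 4.77% and 3.66%. With Con replicate 1 left out 4 genes were called lower (2.57% of all genes tested), with Fat replicate 2 left out 2 (2.23%), and with the deposited TPM values 9 (2.94%). Without limma's mean-variance trend 0 were called (0.0962%), with 24 lower and 0 higher where unadjusted p was no more than 0.05 in that fit, against 11.2% and 9.94% of all genes tested. Mcm5 and Uhrf1 were called whichever of the 4 libraries was left out.

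**Figure D1:**
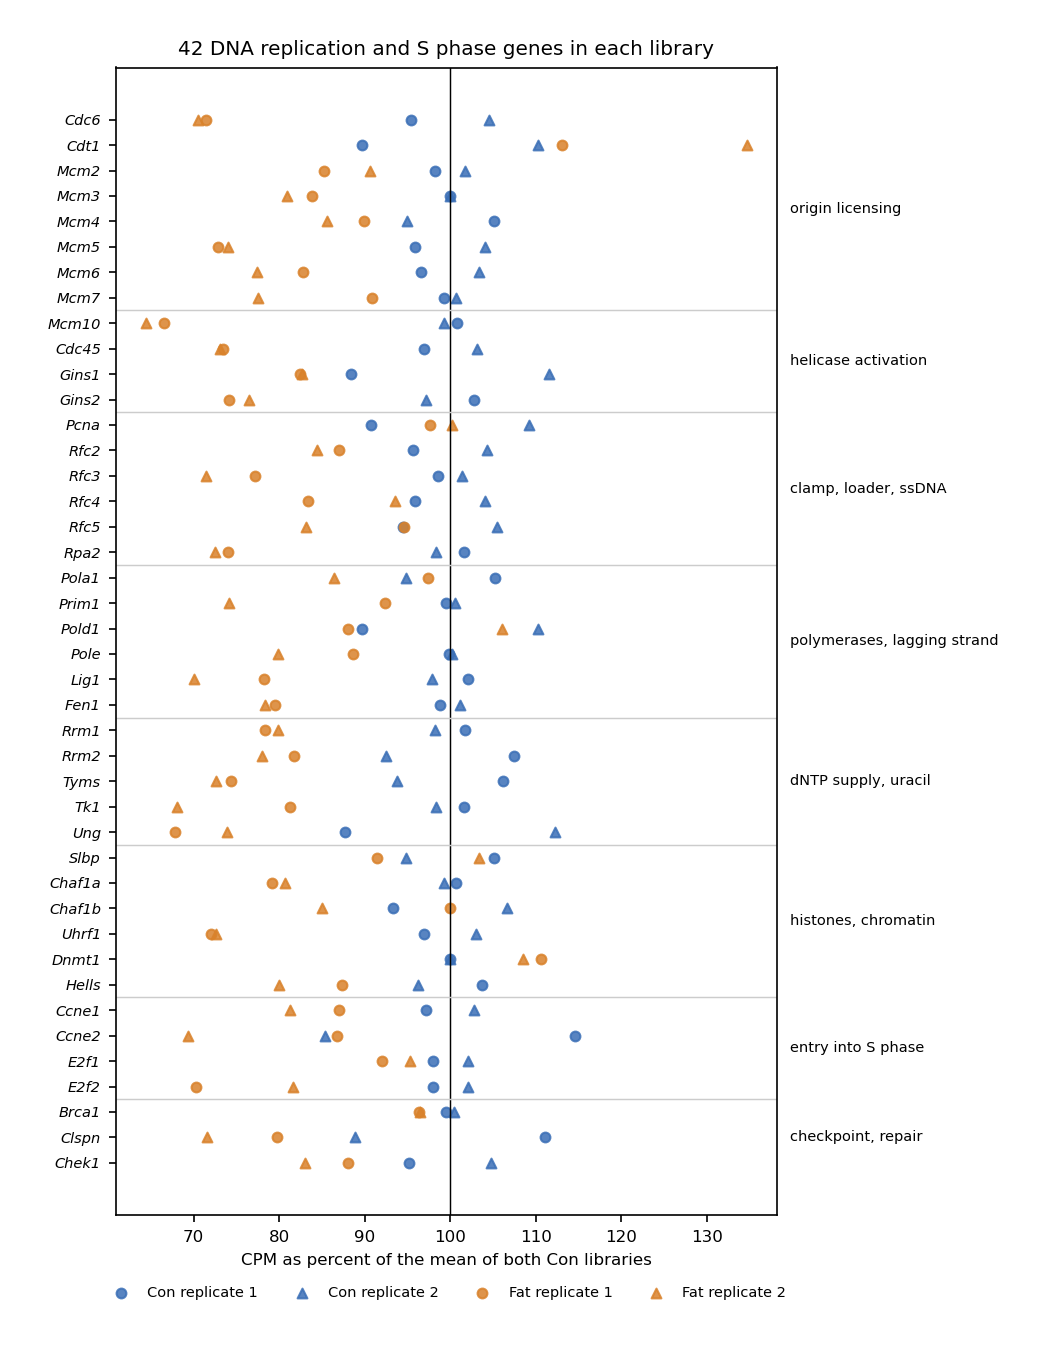
CPM of each of the 42 genes in each library, as a percentage of the gene's mean over both Con libraries, grouped by role (blue, Con; orange, Fat; circle, replicate 1; triangle, replicate 2). The orange points lie left of the blue ones for 33 genes and right of them for Cdt1 and Dnmt1.

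The shift was similar in both Fat libraries. Relative to the mean of the Con libraries, the median of the 42 genes was -0.25 on the log2 scale in Fat replicate 1 and -0.32 in Fat replicate 2. It was -0.01 and 0.01 in Con replicates 1 and 2, which mirror each other because the mean is taken over these same libraries. Over all genes tested the corresponding medians were 0.00 and 0.02 in the Fat libraries. The summed CPM of the 42 genes was 1091 and 1131 in the Con libraries and 984 and 972 in the Fat libraries. In individual genes the replicates of a medium differed by a median of 0.09 (Con) and 0.08 (Fat) on the log2 scale, and by at most 0.42 and 0.32. The reads behind a value ranged from 92 (Ung in Fat replicate 1) to 7679 (Pcna in Fat replicate 2), of 33573852 to 40785872 reads per library, so counting error was larger for genes such as Ung and Chek1 than for Pcna or Dnmt1.

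Among the loading factors and the helicase they load, 4 of 8 genes fell, against 5.0% of all genes tested. Cdc6 stood at 8.05 and 8.82 CPM in the Con libraries, replicate 1 before replicate 2 as in every pair of values here, and at 6.03 and 5.95 CPM in the Fat libraries (log2 fold change -0.49, standard error 0.11, adjusted p = 0.0348 by limma, as for every adjusted p-value of a single gene). Mcm5 was at 32.6 and 35.4 CPM in Con and at 24.8 and 25.2 CPM in Fat, a log2 fold change of -0.44 (standard error 0.07, adjusted p = 0.0126). For both genes the Fat libraries were nearly equal and lay below both Con libraries. The call of Cdc6 was lost with DESeq2, with TPM values and with no filter, and that of Mcm5 was kept in these settings. Without the mean-variance trend neither was called. Mcm6 was at 65.9 and 70.5 CPM in Con and 56.5 and 52.8 CPM in Fat (log2 fold change -0.32, standard error 0.06, adjusted p = 0.0257). Mcm3 was at 47.6 and 47.7 CPM in Con and 40.0 and 38.6 CPM in Fat (log2 fold change -0.28, standard error 0.06, adjusted p = 0.0293). The other subunits of the ring were also lower in both Fat libraries but were not called. Their log2 fold changes were -0.25 for Mcm7 (95% interval -0.46 to -0.04), -0.19 for Mcm4 (-0.36 to -0.01) and -0.18 for Mcm2 (-0.36 to -0.01). Summed over Mcm2 to Mcm7 the CPM was 233 and 239 in Con and 198 and 189 in Fat, so that Fat stood at 82.0% of Con.

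Cdt1, the partner of Cdc6 in loading, stood apart from the other loading factors. It was at 11.9 and 14.6 CPM in Con and at 14.9 and 17.8 CPM in Fat, so the groups did not overlap but the gap between them was narrow. Its log2 fold change was 0.31 (95% interval 0.01 to 0.61, limma adjusted p = 0.192), and it was not called. Its inhibitor geminin (Gmnn), taken from the list of other replication factors, went the other way, from 30.1 and 28.5 CPM in Con to 21.7 and 22.1 CPM in Fat (log2 fold change -0.42, standard error 0.07, adjusted p = 0.0142).

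The factors that turn the loaded helicase on had a median log2 fold change of -0.42. It was close to that of the nucleotide supply genes and below those of the other roles. Of the 4 genes 3 fell, against 5.0% of all genes tested. Mcm10 was at 9.58 and 9.44 CPM in Con and 6.32 and 6.12 CPM in Fat, which gave the lowest log2 fold change of the 42 genes, -0.60 (standard error 0.10, adjusted p = 0.0144). Cdc45 was at 10.998 and 11.7 CPM in Con and 8.33 and 8.29 CPM in Fat (log2 fold change -0.44, standard error 0.09, adjusted p = 0.0292). The replicates of each medium were close together for both genes. Gins2, a subunit of GINS, was at 15.1 and 14.3 CPM in Con and 10.9 and 11.2 CPM in Fat (log2 fold change -0.41, standard error 0.09, adjusted p = 0.0292). Gins1 was lower in both Fat libraries (4.23 and 4.24 CPM) than in Con (4.54 and 5.73 CPM) but its Con replicates lay apart, and its interval ran from -0.61 to 0.08.

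**Figure D2:**
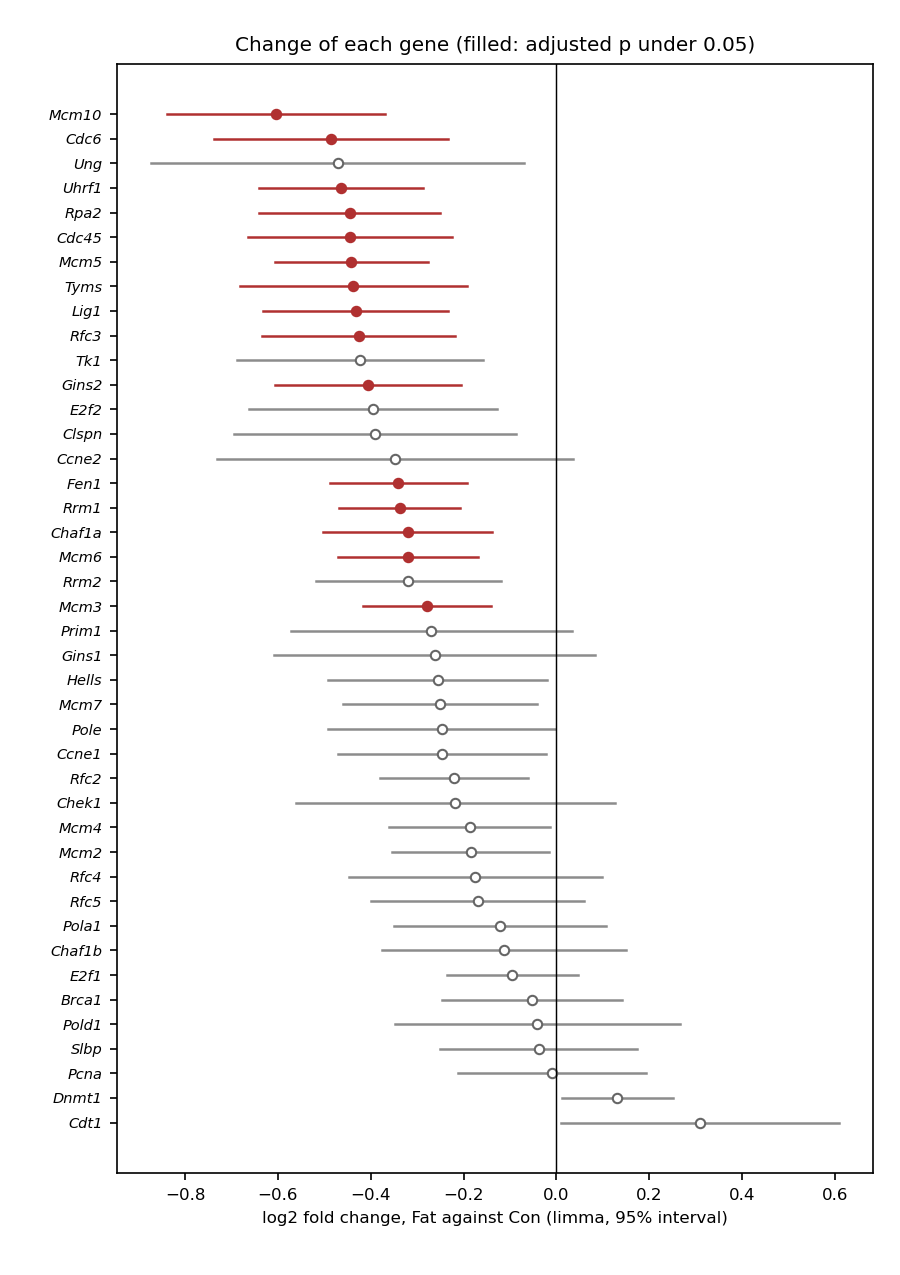
Log2 fold change of Fat against Con for each of the 42 genes from limma on log2(CPM + 0.1), with its 95% interval, ordered by size (filled red, adjusted p under 0.05). The 15 called genes lie between -0.60 for Mcm10 and -0.28 for Mcm3, and 2 genes, Dnmt1 and Cdt1, lie above 0.

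Pcna, which encodes the ring that tethers polymerases to DNA, was at 169.5 and 204 CPM in Con and 182 and 187 CPM in Fat. Both Fat values lay between the Con values, and the log2 fold change was -0.01 (95% interval -0.21 to 0.19, adjusted p = 0.969). The clamp is opened by replication factor C, for which Rfc3 fell from 14.0 and 14.4 CPM in Con to 10.96 and 10.1 CPM in Fat (log2 fold change -0.43, standard error 0.09, adjusted p = 0.0285). The other loader subunits were not called, with log2 fold changes of -0.22 for Rfc2, -0.18 for Rfc4 and -0.17 for Rfc5. Rpa2, a subunit of the protein that coats single-stranded DNA, was at 15.3 and 14.8 CPM in Con and 11.1 and 10.9 CPM in Fat (log2 fold change -0.45, standard error 0.08, adjusted p = 0.0204).

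Among polymerases and lagging-strand enzymes, Fen1 and Lig1, which finish Okazaki fragments, were called lower, and the polymerase and primase genes were not called. Whether their shifts differed was not tested. The 95% intervals of Pole (-0.49 to -0.0024) and Prim1 (-0.57 to 0.03) include the log2 fold change of Fen1. Fen1, the flap nuclease, was at 34.8 and 35.6 CPM in Con and 28.0 and 27.5 CPM in Fat (log2 fold change -0.34, standard error 0.06, adjusted p = 0.0196). Lig1, the ligase that seals the fragments, was at 21.4 and 20.5 CPM in Con and 16.4 and 14.7 CPM in Fat (log2 fold change -0.43, standard error 0.09, adjusted p = 0.0241). The catalytic subunits had log2 fold changes of -0.25 for Pole, the leading-strand polymerase (8.85 and 8.88 CPM in Con, 7.85 and 7.07 CPM in Fat), and -0.12 for Pola1, which starts each strand with the primase Prim1 (-0.27). Pold1, the lagging-strand polymerase, was at 12.2 and 15.0 CPM in Con and 12.002 and 14.5 CPM in Fat, so its groups overlapped (95% interval -0.35 to 0.27).

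All 5 genes of deoxynucleotide supply and uracil removal were lower in both Fat libraries, against 26.2% of all genes tested. Of these, 2 fell at the adjusted threshold, against 5.0% of all genes tested. Rrm1, the large subunit of ribonucleotide reductase, was at 72.1 and 69.5 CPM in Con and 55.5 and 56.5 CPM in Fat (log2 fold change -0.34, standard error 0.06, adjusted p = 0.0144). Tyms, the gene of thymidylate synthase, was at 11.2 and 9.86 CPM in Con and 7.82 and 7.63 CPM in Fat (log2 fold change -0.44, standard error 0.10, adjusted p = 0.0445). Rrm2, the small subunit, was at 39.4 and 33.9 CPM in Con and 30.0 and 28.6 CPM in Fat (log2 fold change -0.32, adjusted p = 0.0624). Tk1, which salvages thymidine, was at 11.3 and 10.9 CPM in Con and 9.002 and 7.54 CPM in Fat (log2 fold change -0.42, adjusted p = 0.0628). The lower Con value of each of these genes lay above the higher Fat value. Ung, the glycosylase that removes uracil from DNA, had the third lowest log2 fold change of the 42 genes, -0.47, at 3.18 and 4.08 CPM in Con and 2.46 and 2.68 CPM in Fat (adjusted p = 0.144).

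Genes that pass chromatin on to the copied DNA were divided. Uhrf1, which recognises half-methylated DNA behind the fork, fell from 21.3 and 22.7 CPM in Con to 15.8 and 15.98 CPM in Fat (log2 fold change -0.46, standard error 0.08, adjusted p = 0.0137). Dnmt1, the maintenance methyltransferase that Uhrf1 recruits, was at 104 CPM in each Con library and at 115 and 113 CPM in Fat, a log2 fold change of 0.13 (95% interval 0.01 to 0.25, adjusted p = 0.172). Dnmt1 was thus slightly above Con in both Fat libraries without being called, while Uhrf1 was called lower. Chaf1a, the large subunit of the histone chaperone CAF-1, fell from 17.0 and 16.8 CPM in Con to 13.4 and 13.7 CPM in Fat (log2 fold change -0.32, standard error 0.08, adjusted p = 0.0466). Its partner Chaf1b had overlapping groups (13.1 and 15.0 CPM in Con, 14.1 and 11.95 CPM in Fat), as did Slbp, the binding protein of histone mRNA (23.7 and 21.4 CPM in Con, 20.6 and 23.3 CPM in Fat). Hells, a chromatin remodeller, had a log2 fold change of -0.26 (95% interval -0.49 to -0.02) and was not called.

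Of the 4 regulators of entry into S phase and the 3 checkpoint and repair genes, 0 were called by limma in either direction. Among all genes tested 5.0% were called lower and 3.99% higher, so 0 among so few genes is near those shares. edgeR and DESeq2 called 0 as well, against 5.2% and 4.77% of all genes tested called lower and 3.93% and 3.66% higher. Where unadjusted p was no more than 0.05 there were 3 lower (Ccne1, E2f2 and Clspn) and 0 higher, against 12.4% and 11.8% of all genes tested. E2f1 was at 45.5 and 47.4 CPM in Con and 42.8 and 44.3 CPM in Fat (log2 fold change -0.09, 95% interval -0.24 to 0.05), and E2f2 was at 8.70 and 9.06 CPM in Con and 6.24 and 7.24 CPM in Fat (log2 fold change -0.40, adjusted p = 0.0786). The cyclins that drive entry had log2 fold changes of -0.25 (Ccne1) and -0.35 (Ccne2). Ccne2 varied widely within each medium, at 12.9 and 9.65 CPM in Con and 9.81 and 7.83 CPM in Fat. Of the checkpoint genes, Clspn, the mediator that hands the stalled-fork signal to Chek1, was at 12.1 and 9.70 CPM in Con and 8.71 and 7.81 CPM in Fat (log2 fold change -0.39, adjusted p = 0.115). Chek1 itself was a low-level gene, at 3.24 and 3.57 CPM in Con and 3.001 and 2.83 CPM in Fat. Brca1, which protects and repairs stalled forks, hardly differed between libraries, at 12.8 and 12.9 CPM in Con and 12.4 CPM in each Fat library (95% interval of the log2 fold change -0.25 to 0.14).

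**Figure D3:**
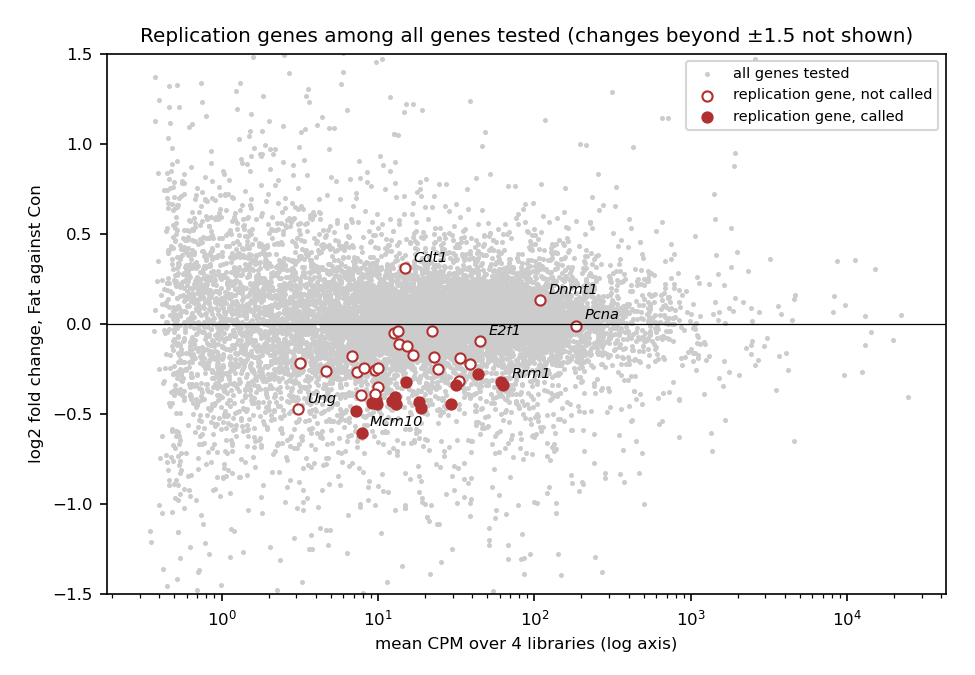
Log2 fold change of Fat against Con plotted over mean CPM (log axis) for all 12470 genes tested (grey) and the 42 replication genes (red, filled where the adjusted p-value was under 0.05). The replication genes lie mostly below 0 within the spread of the other genes, and Pcna, the most abundant of them, lies at -0.01.

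Levels per length (TPM) put Pcna far above the other genes, at 321 ± 37.5 TPM in Con and 325 ± 5.90 TPM in Fat (SD, n = 2 each). Rfc2 came next in Con at 59.7 ± 2.86 TPM, followed by Mcm6 at 50.9 ± 1.76 TPM, and these neighbours did not overlap in Con. At the lower end were Pole (2.69 ± 0.0305 TPM in Con and 2.32 ± 0.172 TPM in Fat) and Chek1 (2.17 ± 0.118 and 1.90 ± 0.0801 TPM). Although the Mcm2 to Mcm7 proteins form a ring with a single copy of each, their transcripts differed in level, from 15.6 ± 0.176 TPM for Mcm2 to 50.9 ± 1.76 TPM for Mcm6 in Con and from 14.0 ± 0.592 to 41.7 ± 2.02 TPM in Fat. The order in Con was Mcm6, Mcm3, Mcm7, Mcm5, Mcm4 and Mcm2. Only the neighbours Mcm5 (20.9 and 22.2 TPM) and Mcm4 (22.7 and 20.1 TPM) overlapped there.

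**Figure D4:**
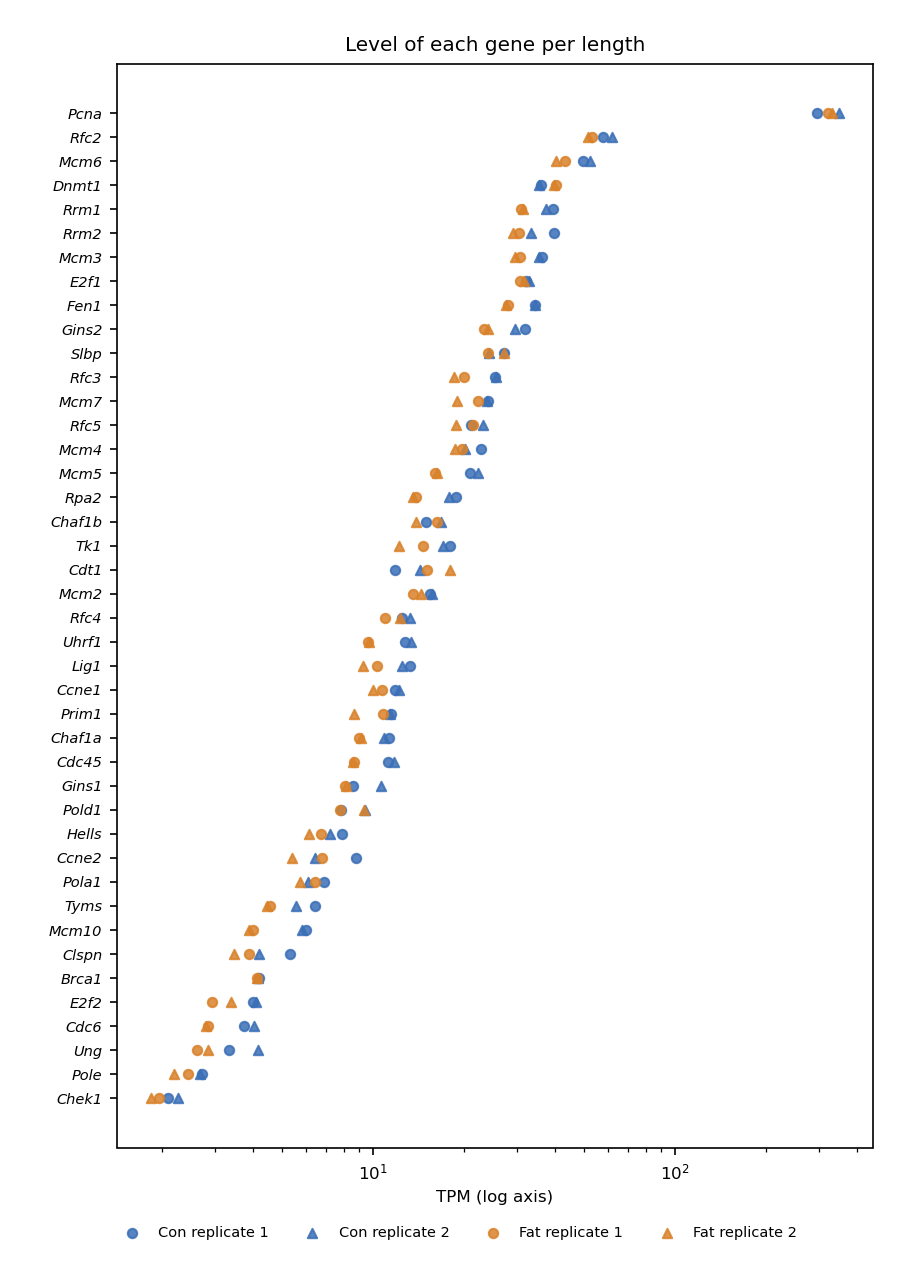
TPM (log axis) of each of the 42 genes in each library, ordered by mean level (blue, Con; orange, Fat; circle, replicate 1; triangle, replicate 2). Levels run from 2.17 TPM for Chek1 to 321 TPM for Pcna in Con, and the gap between media is small beside the range among genes.

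The bases before the start sites are shown for the 5 called genes with the smallest adjusted p-values and a RefSeq promoter entry. They let the E2F motif be seen in place. Any part of E2F in the lower levels was not tested. The sequences are RefSeq's, of build GRCm38.p6, and each holds the 250 bases before the most upstream start listed, written 5′ to 3′ in the gene's direction. They are at chr8:75109259-75109508 (plus strand) for Mcm5, chr17:56303087-56303336 (plus strand) for Uhrf1, chr7:102441445-102441694 (plus strand) for Rrm1, chr2:5012792-5013041 (minus strand) for Mcm10 and chr19:10204394-10204643 (minus strand) for Fen1. Capitals mark matches on either strand to the E2F motif, searched in the loose form TTTNNCGC, where N is any base.
Mcm5: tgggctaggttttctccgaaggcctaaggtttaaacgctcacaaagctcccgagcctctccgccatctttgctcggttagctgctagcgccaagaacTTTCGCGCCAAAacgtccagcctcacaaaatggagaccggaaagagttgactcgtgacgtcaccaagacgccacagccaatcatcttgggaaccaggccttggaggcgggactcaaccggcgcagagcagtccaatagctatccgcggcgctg
Uhrf1: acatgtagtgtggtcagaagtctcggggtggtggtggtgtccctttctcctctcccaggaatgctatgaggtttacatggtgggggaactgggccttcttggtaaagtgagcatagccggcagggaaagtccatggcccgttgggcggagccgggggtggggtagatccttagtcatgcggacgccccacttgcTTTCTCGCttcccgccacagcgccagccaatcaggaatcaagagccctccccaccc
Rrm1: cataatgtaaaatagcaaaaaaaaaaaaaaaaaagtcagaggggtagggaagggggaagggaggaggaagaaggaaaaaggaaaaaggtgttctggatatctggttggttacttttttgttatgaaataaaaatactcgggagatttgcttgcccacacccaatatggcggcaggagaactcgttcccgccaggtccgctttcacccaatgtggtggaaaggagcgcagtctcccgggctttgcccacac
Mcm10: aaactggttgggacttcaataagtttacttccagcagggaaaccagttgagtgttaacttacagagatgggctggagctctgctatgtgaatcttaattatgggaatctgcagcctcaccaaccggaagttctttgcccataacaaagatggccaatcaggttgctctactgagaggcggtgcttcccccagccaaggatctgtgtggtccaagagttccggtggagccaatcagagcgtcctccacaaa
Fen1: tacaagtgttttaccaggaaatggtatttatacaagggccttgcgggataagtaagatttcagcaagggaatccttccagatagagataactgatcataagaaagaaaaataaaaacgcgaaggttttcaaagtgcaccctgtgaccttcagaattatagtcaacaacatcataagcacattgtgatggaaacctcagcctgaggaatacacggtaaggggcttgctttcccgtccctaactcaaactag

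Mcm5 had 2 overlapping matches, with first bases 153 and 149 bases before the start, and Uhrf1 had 1, at 56 bases. Rrm1, Mcm10 and Fen1 had 0 matches in these windows. Fen1 and Uhrf1 have 2 starts listed each, and only the window of the most upstream start was searched. Only this 1 form of the motif was searched, and related sequences were not counted. An example is ttcccgcc, which stands unmarked in the windows of Rrm1 and Uhrf1. A window with 0 matches is therefore not shown to lack an E2F site. RefSeq entries were found for 36 of the 42 genes, and not for Ccne2, Gins1, Gins2, Mcm4, Pole and Rfc2. TTTNNCGC or its reverse complement occurred in 8 of these 36 windows (22.2%), namely those of Cdc6, Hells, Mcm5, Mcm6, Mcm7, Pola1, Rfc3 and Uhrf1, and in 4.4% of the windows of the same length of 27025 genes. The CCAAT box (CCAAT or ATTGG), which often stands beside E2F sites in genes of the cell cycle, occurred in 21 of the 36 windows (58.3%) and in 34.5% of all windows. The CHR element of mitotic genes, searched as TTTGAA or TTCAAA, occurred in 4 of the 36 (11.1%) and in 16.3% of all. Both strands were searched, each motif was counted separately whether or not its matches overlapped those of another, and a match is a description of the sequence only. Genes with an E2F match were both called (Cdc6, Mcm5, Mcm6, Rfc3, Uhrf1) and not called (Hells, Mcm7, Pola1).

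Other genes of the pathway were read from 3 fixed lists that hold 80 genes besides the 42, also chosen with earlier results of these data known. Of these, 9 (11.2%) fell and 0 rose (limma, adjusted p under 0.05), against 5.0% and 3.99% of all genes tested. Unadjusted p was no more than 0.05 for 21 lower and 2 higher genes, against 12.4% and 11.8%. edgeR called 9 lower and 0 higher (5.2% and 3.93% of all genes tested), and DESeq2 8 lower and 0 higher (4.77% and 3.66%). With Con replicate 1 left out 5 were called lower (2.57% of all genes tested) and with Fat replicate 2 left out 4 (2.23%). Their median log2 fold change was -0.12. Among 39 further replication factors 2 fell, a share of 5.13% and so near that of all genes tested. They were Gmnn and Rnaseh2b, the latter a subunit of the enzyme that clears RNA from DNA (log2 fold change -0.41, adjusted p = 0.0206). Mcm8, a relative of the ring subunits, missed the threshold (adjusted p = 0.0672) at -0.51 on the log2 scale, and Pold2, a partner of Pold1, missed it (adjusted p = 0.102) at -0.30. Among 13 further genes of nucleotide and histone supply 3 fell. Dck, which phosphorylates salvaged deoxycytidine, was at 101 and 80.9 CPM in Con and 60.8 and 48.5 CPM in Fat (log2 fold change -0.74, standard error 0.13, adjusted p = 0.017). Asf1b, which carries new histones to CAF-1, was at 17.8 and 17.9 CPM in Con and 11.9 and 11.8 CPM in Fat (log2 fold change -0.59, standard error 0.08, adjusted p = 0.00726). Samhd1, which breaks deoxynucleotides down and so works against supply, was at 978 and 949.8 CPM in Con and 792 and 652 CPM in Fat (log2 fold change -0.42, standard error 0.09, adjusted p = 0.0358). Among 28 further regulators of entry into S phase 4 fell. These were Rbl1, a pocket protein that restrains E2F (log2 fold change -0.54, adjusted p = 0.0112), Ccna2, the cyclin of S phase (-0.48, adjusted p = 0.013), Cdkn2d, an inhibitor of the cyclin D kinases (-0.42, adjusted p = 0.034), and Ccnd1, a cyclin D (-0.32, adjusted p = 0.0201).

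Genes of the later phases were lower as well. Of 12 markers of mitosis and dividing cells, 7 fell and 0 rose by limma, against 5.0% and 3.99% of all genes tested (0 rose where unadjusted p was no more than 0.05 too, and edgeR and DESeq2 each called 7 lower and 0 higher), and in all 12 both Fat libraries lay below both Con libraries, against 26.2% of all genes tested. Their median log2 fold change was -0.35. Top2a, which untangles copied chromosomes, was at 86.5 and 77.2 CPM in Con and 57.1 and 55.0 CPM in Fat (log2 fold change -0.54, standard error 0.07, adjusted p = 0.00611). Mki67, the gene of the Ki-67 proliferation antigen, was at 60.7 and 51.4 CPM in Con and 43.5 and 39.5 CPM in Fat (log2 fold change -0.43, standard error 0.09, adjusted p = 0.0298). Whether the replication and the mitotic genes differed in their shift was not tested.

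**Figure D5:**
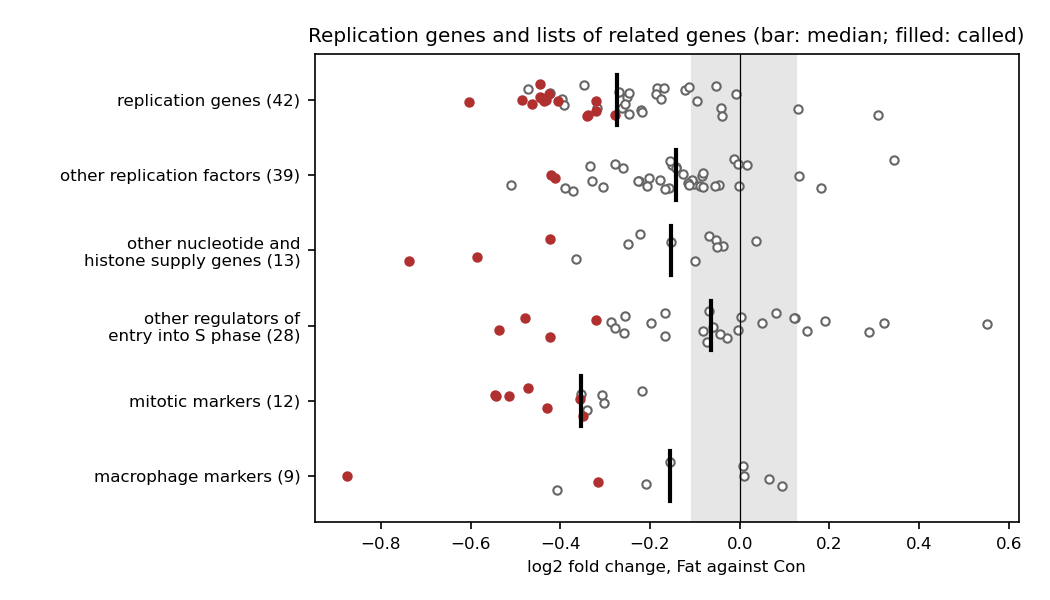
Log2 fold change of Fat against Con for the 42 replication genes, the 3 lists of other pathway genes, mitotic markers and macrophage markers (numbers of genes tested in parentheses; filled red, adjusted p under 0.05; black bar, median; grey band, interquartile range of all genes tested, -0.11 to 0.13). The medians are -0.27 for the replication genes, -0.14, -0.15 and -0.06 for the lists of other replication factors, supply genes and regulators of entry, -0.35 for the mitotic markers and -0.15 for the macrophage markers.

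The cells carried macrophage markers in all libraries. Of 10 such markers 9 were analysed, and the remaining marker, Adgre1, was not found by symbol. The 9 summed to 33596 to 35565 CPM in Con and 26747 to 28258 CPM in Fat, with Lyz2 the largest part. Of the 9, 2 fell (Mertk and Fcgr1), against 5.0% of all genes tested. Markers of other marrow cells, some of which divide, ranged widely in level. Summed CPM in Con and Fat was 13.7 to 16.6 and 10.6 to 10.8 for 5 T cell genes, 23.0 to 23.9 and 18.3 to 22.2 for 6 B cell genes, 4.72 to 5.38 and 3.80 to 4.12 for 6 genes of blood stem and progenitor cells, and 0.0885 to 0.213 and 0.107 to 0.244 for 4 erythroid genes, none of which reached the filter. The 9 neutrophil and myeloid progenitor genes summed to 362 to 413 CPM in Con and 352 to 353 CPM in Fat, and the 8 stromal and endothelial genes to 529 to 553 and 445 to 582 CPM. Of the tested genes of these lists 1 was called, the stromal gene Dcn (log2 fold change -0.82, adjusted p = 0.0358). Among all genes tested 5.0% were called lower and 3.99% higher. Adipocyte genes were at 0.177 to 0.213 CPM in Con and 3.12 to 5.14 CPM in Fat summed over 7 genes, with Adipoq at 0 in both Con libraries. Of the 7, 2 passed the filter, through the Fat libraries alone. Both were called higher in Fat, but the filter had set that direction, so the calls are not read as a test. Cidec was at 0 and 0.0533 CPM in Con and 1.8 and 1.15 CPM in Fat. Plin4 was at 0.0295 and 0.0533 CPM in Con and 1.07 and 0.707 CPM in Fat. The part of these cells in the levels of the replication genes was not tested.

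Reads of 5 of the 42 genes could be shared with other genes, since over 20% of their 75-base stretches also occur in transcripts of other genes of the GENCODE vM21 annotation. For Fen1 (80.2%), Gins2 (70.1%) and Chaf1a (43.9%) the stretches were shared with genes overlapping on the opposite strand, for Pcna (23.9%) with the pseudogene Pcna-ps2, and for Mcm7 (20.6%) with Ap4m1, which overlaps it, and Gm5487. The kit marks strand, but the sources used here do not say whether the counting did. Gse1, opposite Gins2, rose (log2 fold change 0.37, limma adjusted p = 0.024). Tmem258, opposite Fen1, Ubxn6, opposite Chaf1a, and Ap4m1 beside Mcm7 were not called, with log2 fold changes of 0.09, 0.05 and 0.01. Without these 5 genes, an alternative chosen after seeing the data, 12 of the remaining 37 were called lower and the median log2 fold change was -0.27.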

How the data were processed

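Poly(A) RNA of mouse bone marrow-derived macrophages was sequenced from stranded libraries, 2 with Con and 2 with Fat medium. The authors deposited CPM and TPM values per gene and library. The build was GRCm39 per the submitters' processing notes, and the aligner, counter and annotation are not given in the sources used here. The CPM values were whole multiples of 1 read (tolerance 1e-06) for 100% of values in each library, which gave 33573852 to 40785872 reads per library, 1 read being worth 0.0244 to 0.0295 CPM. Intervals cover the spread between libraries as limma models it.

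Genes reaching 0.5 CPM in 2 or more libraries were kept. log2(CPM + 0.1) was tested with limma 3.58.1 (R 4.3.3, trend, no block) over all 12470 genes, and p-values were adjusted by Benjamini-Hochberg. Fold changes are on that scale, which understates the change of low genes. The exact permutation test of 2 against 2 libraries cannot go below p = 0.333 and was not used. The fit was repeated on the TPM values, with another pseudocount (1 CPM), unfiltered, restricted to genes averaging 5 CPM or more, rescaled by median ratios, with a replicate block, without the trend and with each library left out. edgeR 4.0.16 and DESeq2 1.42.0 were run on the recovered reads. The scripts were tested on simulated data. The members and lists were chosen with earlier results of these data known. All 42 genes are described, with each called gene's value in every library, and of each further pathway list the called genes and up to 4 with the smallest adjusted p-values. Promoter sequences are RefSeq's (GRCm38.p6). Shared stretches were counted in GENCODE vM21 transcripts, and no coordinate was moved between builds.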

Additional observations from a re-analysis of the deposited data

How the results depend on the processing

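The number of replication genes called lower stayed within 1.5 times of 15 in the settings named next. The share of all genes tested that the same setting called lower is in parentheses. It was 15 with a pseudocount of 1 CPM (5.0%), rescaling by median ratios (5.43%), a mean of at least 5 CPM (5.32%) and edgeR (5.2%). With no filter it was 12 (3.13%), with DESeq2 11 (4.77%) and without the 5 genes of shared sequence 12 (5.0%). Beyond those limits it was 9 with TPM values (2.94%) and 0 without the mean-variance trend (0.0962%). Where unadjusted p was no more than 0.05 it was 27 (12.4%), and 2 were called higher (11.8%). Of the 15, Cdc6, Cdc45, Tyms and Chaf1a were not called with DESeq2. Cdc6, Mcm3, Mcm6, Lig1, Tyms and Chaf1a were not called with TPM values, and Cdc6, Tyms and Chaf1a were not called with no filter. Of the 80 further pathway genes, 9 were called lower, and 0 without the trend (19 lower and 2 higher where unadjusted p was no more than 0.05 in that fit, against 11.2% and 9.94% of all genes tested) and 21 where unadjusted p was no more than 0.05. Leaving out 1 library gave 2 to 10 replication genes called lower, 4 to 8 further pathway genes and medians of -0.32 to -0.25 on the log2 scale. A lone library is then assumed to vary like the other group. The replicates share only a number, with a correlation of 0.20 between the deviations of same-numbered libraries over 12470 genes. With the replicate block, 24 replication genes were called lower (9.96% of all genes tested) and 1 higher (Cdt1, limma adjusted p = 0.0105, against 10.2%), and 18 further pathway genes lower. The block raised the calls among all genes from 1122 to 2520, with 1 residual degree of freedom in place of 2 and 28.4 prior degrees of freedom in place of 5.41. Calls among all genes were 791 with TPM values, 31 without the trend and 469 to 1114 with 1 library left out. The log2 fold change changed sign in 4 genes that were not called. For Pcna it was 0.023 with TPM values, and with 1 library left out it ranged from -0.14 to 0.12 for Pcna, -0.19 to 0.11 for Pold1, -0.13 to 0.050 for Slbp and -0.23 to 0.0033 for Chaf1b. The cause of these changes was not tested. The median of all genes was 0.01 on the log2 scale and 0.044 with TPM values, the farthest from 0 of the scalings run. With 2 libraries per medium, a missed threshold does not show that a gene was the same in both media, and for low genes such as Ung (92 reads in Fat replicate 1) counting error adds to the spread.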
